A study of Mus musculus with 18 samples.

Results

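The genes of mitosis and of the G2 phase that precedes it were followed in mouse bone marrow cells of a series on leukemia with rearranged NUTM1. A list of 58 gene names was matched to the deposited table of expected read counts, and all 58 were found among its 32285 genes. The list names genes by what they do, and no measured value enters its rule, but it was chosen with earlier results of these data known. By role it holds 11 genes of mitotic entry, 10 of the spindle checkpoint and anaphase, 4 of the chromosomal passenger complex, 7 of the kinetochore, 8 kinesins, 7 other spindle proteins, 3 genes of cytokinesis, 7 of chromosome structure, and Cdca3.

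RNA was sequenced from 18 libraries in 6 groups of 3. The groups were CD45.2+ cells with the fusion BRD9-NUTM1 (BN1), CD45.2+ cells with the fusion AFF1-NUTM1 (AFFN1) and CD45.2+ control cells, each on day 6 and on day 14. The day 6 descriptions call the control cells Mock. All cells were bone marrow cells of the C57BL/6 strain, given by the labels as iLS cells, and were isolated by flow cytometry. The labels used here do not give the promoter of the fusions or how they were introduced, the event from which days are counted, or which mice gave which library. Because of this, a p-value below rests on the scatter among libraries, whatever its source. On day 6 this is the scatter within groups, estimated over the 9 libraries together. On day 14 it is the scatter left after libraries of equal number are compared as pairs. Comparisons across days treat the day 14 libraries in the same way. The sample descriptions are written differently on the 2 days, so an effect of the day and one of the experiment cannot be told apart.

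Library totals, in units of 1e6 expected counts, lay between 14.2 and 18.4, and the 58 genes together took 0.646 to 1.07% of a library's counts. Levels are given as counts per 1e6 counts, scaled by the trimmed mean of M values within the libraries of 1 day (CPM) unless all 18 libraries are named as the scale. Ptprc, the gene of CD45, had 163 to 461 CPM, and 10 B-lineage progenitor genes summed to 5875 to 11186 CPM in the 18 libraries. Markers of other cells were low: 8 erythroid genes summed to 2.15 to 34.3 CPM, 9 granulocyte and monocyte genes to 13.2 to 159 CPM, 8 stromal genes to 14.9 to 163 CPM, and 8 T and NK cell genes to 9.38 to 65.2 CPM. Hba-a1, Mpo and Elane were at 0 in all day 6 libraries. Other genes of the same lists were present on day 6, Lyz2 at 43.8 to 150 CPM and Hbb-bt at 1.36 to 4.58 CPM.

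A cell enters mitosis when the kinase Cdk1, bound to cyclin B (Ccnb1, Ccnb2) or cyclin A (Ccna2), is freed of inhibitory phosphates by the Cdc25 phosphatases. Kinesins and other spindle proteins then build the spindle, kinetochores attach chromosomes to it, and the checkpoint kinases hold Cdc20 and the anaphase-promoting complex in check until every chromosome is attached. Separase (Espl1), released from securin (Pttg1), cuts the cohesin rings, and the cell divides. Most of these genes are transcribed mainly in G2 and mitosis, after the DREAM repressor complex is replaced by the MuvB complex with B-Myb (Mybl2) and Foxm1. In marrow, early B-cell progenitors are among the cells that divide most.

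Per kilobase of the longest annotated transcript, on the scale of all 18 libraries, Top2a had the highest mean level of the 58 genes, 176 CPM per kb with a range of 116 to 216 over the libraries. Top2a encodes the topoisomerase that untangles chromosomes before they part. Next came the cyclins Ccna2 at a mean of 111 and Ccnb2 at 109 CPM per kb, by the anaphase-promoting complex's partner enzyme Ube2c at 107, and by the proliferation marker Mki67 at 91.8. The ranges of these 5 genes over the libraries overlapped each other, so their order is not fixed beyond the libraries' spread. Cdk1 had 32.2 CPM per kb. At the low end, Cdc25c had 8.58, the kinesin Kif18a 4.84, the spindle protein Psrc1 0.823 and securin, Pttg1, 0.711 CPM per kb. Psrc1 and Pttg1 were the only members with a level of 0 in any library. Of the 58 genes, 14 share exon bases with another gene of the table, among them Cdc25b with 92 bases of Spef1 and Ube2c with 592 bases of Tnnc2, both on the opposite strand. The strand setting of the counting is not given in the sources used here, so reads from those bases cannot be assigned.

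The promoters of these genes are shown because they share sequence that the choice by function did not use. RefSeq windows of GRCm38.p6, from 250 bases before a gene's start to 50 after it, were matched to 48 of the 58 genes by symbol, with the first listed window taken where a gene had several. The motifs searched on both strands were the cell cycle genes homology region, written as TTTGAA or TTCGAA, which the MuvB complex is known to bind, and the CCAAT box (CCAAT), which is bound by NF-Y. These letters do not overlap between the motifs. The homology region was found in 36 of the 48 windows (75%), against 19.4% of the windows of 27025 genes. The CCAAT box was found in 35 (72.9%), against 37.9% of all genes, and both motifs in 31 (64.6%), against 7.70%. Within the last 100 bases of the window the homology region was present in 33 of the 48 genes (68.8%) and in 5.29% of all genes. A match describes the letters only and was not tested as a binding site.

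The 6 promoters below belong to the genes that the comparisons turn on, with Cdk1 as the central kinase. Each runs 5′ to 3′ on the gene's strand, from 100 bases before the annotated start to 25 bases from it. Capitals mark the 2 motifs in either orientation.
Bub1, chr2:127831835-127831959, minus strand: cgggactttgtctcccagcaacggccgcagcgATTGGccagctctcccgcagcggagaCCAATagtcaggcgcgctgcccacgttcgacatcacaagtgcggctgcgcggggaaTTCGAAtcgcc
Cdc25b, chr2:131186848-131186972, plus strand: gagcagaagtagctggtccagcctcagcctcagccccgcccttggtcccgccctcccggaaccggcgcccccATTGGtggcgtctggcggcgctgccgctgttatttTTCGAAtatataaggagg
Cenpa, chr5:30666786-30666910, plus strand: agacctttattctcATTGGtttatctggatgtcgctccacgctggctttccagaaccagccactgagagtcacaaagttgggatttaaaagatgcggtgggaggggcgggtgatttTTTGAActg
Psrc1, chr3:108383704-108383828, plus strand: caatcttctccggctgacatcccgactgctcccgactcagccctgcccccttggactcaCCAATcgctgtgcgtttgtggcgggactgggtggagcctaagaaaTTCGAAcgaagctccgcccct
Cdk1, chr10:69352888-69353012, minus strand: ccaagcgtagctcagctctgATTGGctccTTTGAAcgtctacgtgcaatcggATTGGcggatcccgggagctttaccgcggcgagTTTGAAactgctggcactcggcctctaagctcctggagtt
Ube2c, chr2:164769829-164769953, plus strand: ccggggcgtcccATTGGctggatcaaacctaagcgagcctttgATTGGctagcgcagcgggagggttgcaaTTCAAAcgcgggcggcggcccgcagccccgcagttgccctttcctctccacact
All 6 hold at least 1 copy of each motif. Counted from the start of the first listed RefSeq window, the homology region lies just past the start in Bub1, Cdc25b, Cenpa and Psrc1, and before it in Cdk1 and Ube2c. Psrc1 has a second window with a later start, from which the same match lies 30 bases upstream.

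On day 6 most of the mitotic genes differed by less than 2-fold between BN1 and control cells. Of 57 tested members, 1 rose (Bub1) and 2 fell (Psrc1 and Gtse1) in BN1 cells at an adjusted p under 0.05 (edgeR quasi-likelihood test, Benjamini-Hochberg adjustment over all 12068 tested genes). Over all tested genes, 8.83% rose and 8.53% fell. The median log2 fold change was -0.04 over the members, with 23 above 0 and 34 below, and -0.02 over all genes. For 56 of the 57 members (98.2%) the 95% interval of BN1 over control lay within a 2-fold change in either direction, against 75.6% of all tested genes, and the median half-width of the members' intervals was 0.24 on the log2 scale. In bulk RNA, fewer cells in mitosis and less mitotic RNA per cell cannot be told apart. T and NK cell markers summed to 58.8 to 65.2 CPM in BN1 cells and 20.3 to 48.2 CPM in control cells. Most of this was Nkg7, at 46.6, 51.5 and 54.4 CPM in BN1 libraries and 28.1, 17.4 and 37.7 CPM in control libraries. Trac had 4.54, 5.16 and 4.20 CPM in BN1 libraries and 0.507, 0.806 and 1.64 CPM in control libraries. Cd3e, Cd3g, Cd4 and Cd8a had at most 0.123 CPM in any day 6 library. The part of T and NK cells in the values of the mitotic genes was not tested.

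**Figure D1:**
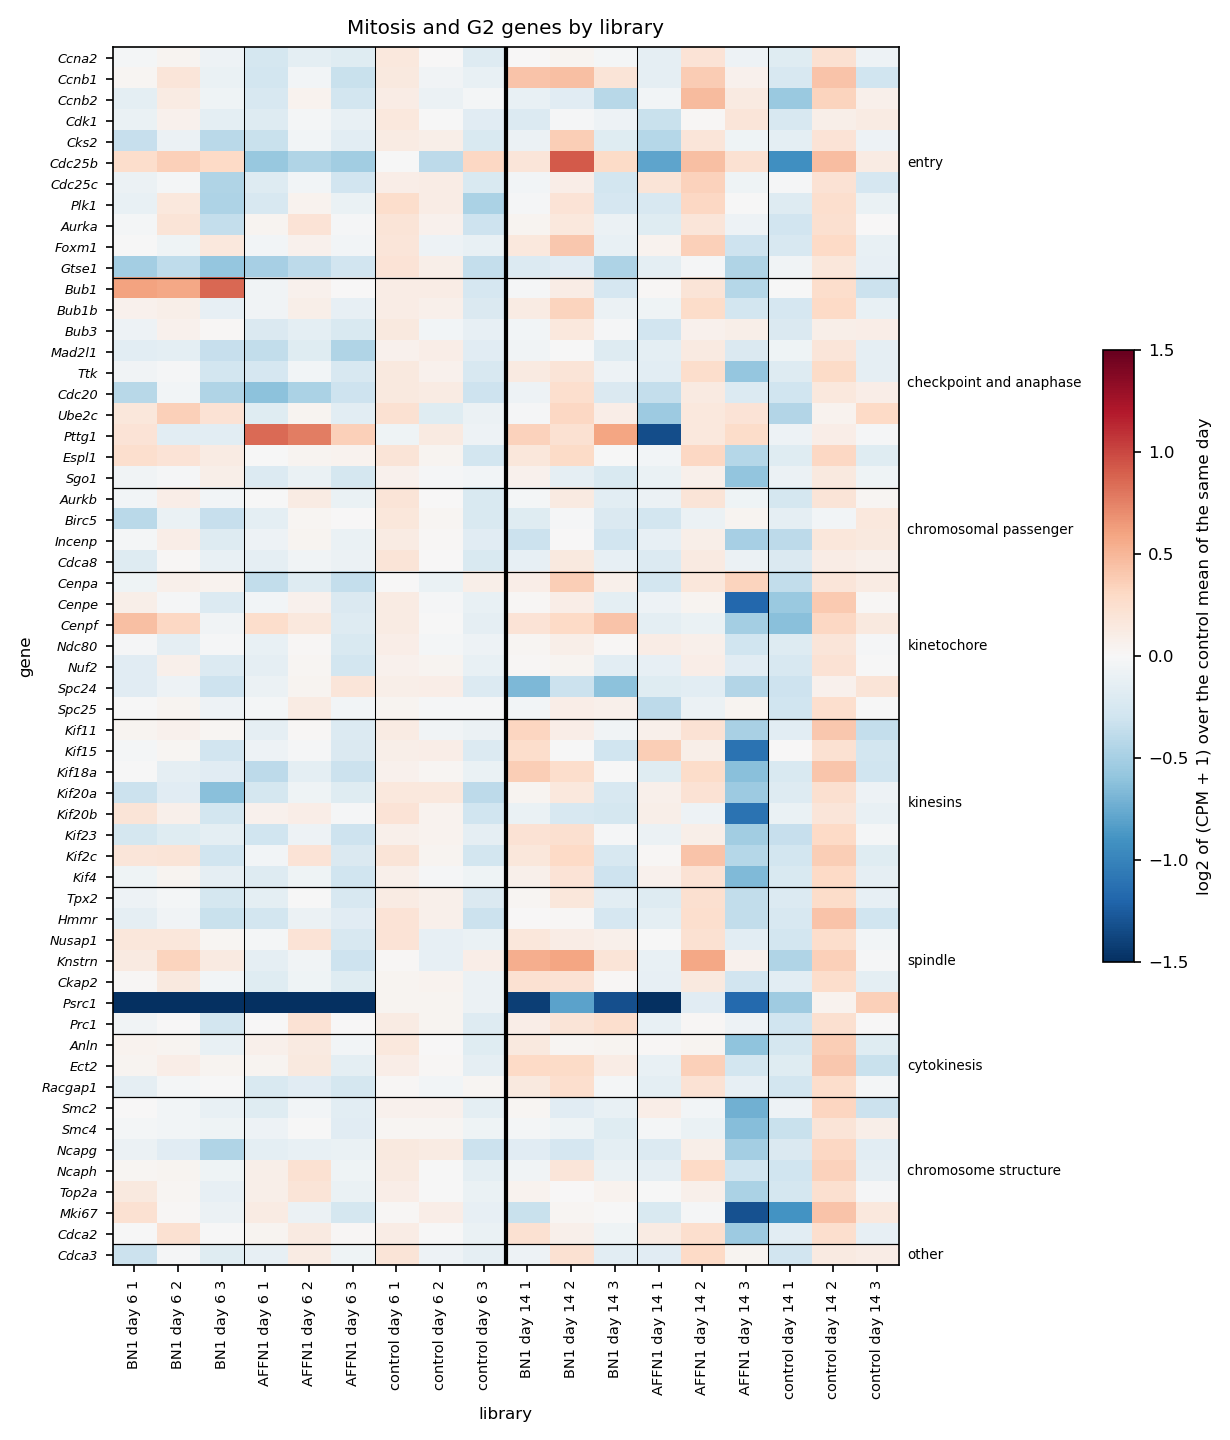
Level of the 58 mitotic and G2 genes in each of the 18 libraries, as log2(CPM + 1) minus the mean of the control libraries of the same day, with genes in rows by role and libraries in columns as BN1, AFFN1 and control on each day. Colours are clipped at 1.5 in either direction. Most rows are pale on day 6, with Psrc1 as the low row of both fusions, and on day 14 whole columns shift together.

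Bub1, a checkpoint kinase that sits at kinetochores and marks centromeric histone for the passenger complex, was the member that rose in BN1 cells on day 6. It lies on mm10 chromosome 2 from 127801122 to 127831865. Its level was 165, 162 and 198 CPM in the BN1 libraries, 104, 113 and 108 CPM in the AFFN1 libraries and 117, 117 and 90.6 CPM in the control libraries. All 3 BN1 libraries were above every AFFN1 and control library, and AFFN1 and control libraries overlapped. BN1 cells averaged 175 ± 19.6 CPM and control cells 108 ± 15.3 CPM (SD, n = 3 each), a 1.62-fold higher level in BN1 cells with a log2 fold change of 0.69 (SE 0.11, 95% interval 0.44 to 0.95, edgeR adjusted p = 0.00244). The call held with each of the 6 single libraries of the comparison left out, at log2 fold changes of 0.60 to 0.77 and edgeR adjusted p-values up to 0.0101. Of 5 tested genes within 250 kb of Bub1, Mrps5, a gene of the mitochondrial ribosome 194 kb away, fell (log2 fold change -0.50), and the other 4 were not called.

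Gtse1, a microtubule-associated protein of G2 and mitosis, had 99.5, 108 and 94.3 CPM in BN1 libraries, 99.98, 108 and 116 CPM in AFFN1 libraries and 164, 151 and 111 CPM in control libraries on day 6. Every BN1 library lay below every control library, the lowest control library by a few CPM only. The log2 fold change in BN1 cells was -0.49 (SE 0.13, edgeR adjusted p = 0.0299), and in AFFN1 cells it was -0.40 (edgeR adjusted p = 0.0803). The BN1 call was lost when control 1, control 2, BN1 1 or BN1 3 was left out, at edgeR adjusted p-values of 0.0908 to 0.122. Without control 3, the library in which 4 of 57 members lay above the control mean, 9 members were called in BN1 cells, 2 up and 7 down. Control 3 also had the highest granulocyte and monocyte marker sum of the control libraries, at 159 CPM against 91.5 and 59.1 CPM. Its stromal marker sum was 104 CPM, against 66.3 and 32.8 CPM in control 1 and control 2. BN1 3 had 157 and 88.4 CPM of these markers. The part of other cells in these calls was not tested.

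In AFFN1 cells on day 6 most of the mitotic genes were also within 2-fold of control cells. None of the 57 tested members rose and 3 fell (Psrc1, Cdc25b and Cenpa), with 7.79% of all tested genes rising and 4.87% falling. The median log2 fold change was -0.10 over the members, with 14 above 0 and 43 below, and -0.02 over all genes. The 95% interval lay within 2-fold for 56 of 57 members (98.2%), against 76.5% of all genes. At an unadjusted p under 0.05 edgeR had 11 members (19.3%), against 28.3% of all tested genes. DESeq2 called 7, all of them lower in AFFN1 cells, and its share over all genes is not given here.

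Cdc25b encodes a phosphatase that starts Cdk1 activation at the centrosome, and lies on mm10 chromosome 2 from 131186949 to 131198497. On day 6 it had 88.4, 94.2 and 90.2 CPM in BN1 libraries, 49.2, 53.4 and 50.6 CPM in AFFN1 libraries and 73.2, 55.5 and 91.2 CPM in control libraries. The AFFN1 libraries were the lowest, below all control libraries, and the BN1 libraries overlapped with the control libraries, whose spread was the widest. AFFN1 cells averaged 51.1 ± 2.14 CPM and control cells 73.3 ± 17.9 CPM (SD, n = 3 each), a log2 fold change of -0.52 (SE 0.15, 95% interval -0.85 to -0.20, edgeR adjusted p = 0.0422). This call was lost without control 1, control 3 or any of the 3 AFFN1 libraries, at edgeR adjusted p-values of 0.0716 to 0.166. Between BN1 and control cells the log2 fold change was 0.31 (95% interval -0.01 to 0.63, edgeR adjusted p = 0.168).

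Cenpa, the histone H3 variant that marks centromeres, had 238, 262 and 257 CPM in BN1 libraries, 192, 217 and 194 CPM in AFFN1 libraries and 250.2, 232 and 263 CPM in control libraries on day 6. All AFFN1 libraries were below all others, and BN1 and control libraries overlapped. The log2 fold change of AFFN1 over control was -0.31 (SE 0.08, edgeR adjusted p = 0.0392), and that of BN1 over control was 0.02 (edgeR adjusted p = 0.875). The AFFN1 call was lost without control 1, control 3 or any AFFN1 library, at edgeR adjusted p-values of 0.0574 to 0.183. With 1 library left out at a time, the number of members called in AFFN1 cells was 1 without control 1, AFFN1 1, AFFN1 2 or AFFN1 3, and 5 without control 3. With the replicate number as a block on day 6, Cdc25b (edgeR adjusted p = 0.0697) and Cenpa (0.0681) were not called in AFFN1 cells.

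The 2 fusions were also set against each other. On day 6, 4 of 57 members were higher in BN1 than in AFFN1 cells (Cdc25b, Bub1, Knstrn and Cenpa) and none was lower, with 4.99% of all tested genes higher and 6.19% lower. The median log2 fold change was 0.04 over the members and -0.00 over all genes. Cdc25b was 1.78-fold higher in BN1 cells (log2 fold change 0.83, SE 0.15, edgeR adjusted p = 0.00474), and Bub1 1.61-fold (0.69, SE 0.11, edgeR adjusted p = 0.00342). Both calls held with each single library of the 2 groups left out. Without number 1 in all groups of day 6 both were lost, at edgeR adjusted p-values of 0.147 for Cdc25b and 0.0999 for Bub1, and no member was called.

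Knstrn, a kinetochore and spindle protein needed to hold the spindle in place, had 108, 125 and 109 CPM in BN1 libraries, against 89.6, 95.3 and 79.6 CPM in AFFN1 libraries. The BN1 libraries were all above the AFFN1 libraries, at a log2 fold change of 0.37 (SE 0.10, edgeR adjusted p = 0.0344), and this call was lost with any of the 6 libraries left out. For Cenpa the log2 fold change between the fusions was 0.33 (SE 0.08, edgeR adjusted p = 0.0315), lost without BN1 2, BN1 3, AFFN1 1 or AFFN1 3. The number of members called between the fusions was 2 when any of those same 4 libraries was left out. With the replicate number as a block it was also 2, Cdc25b and Bub1.

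**Figure D2:**
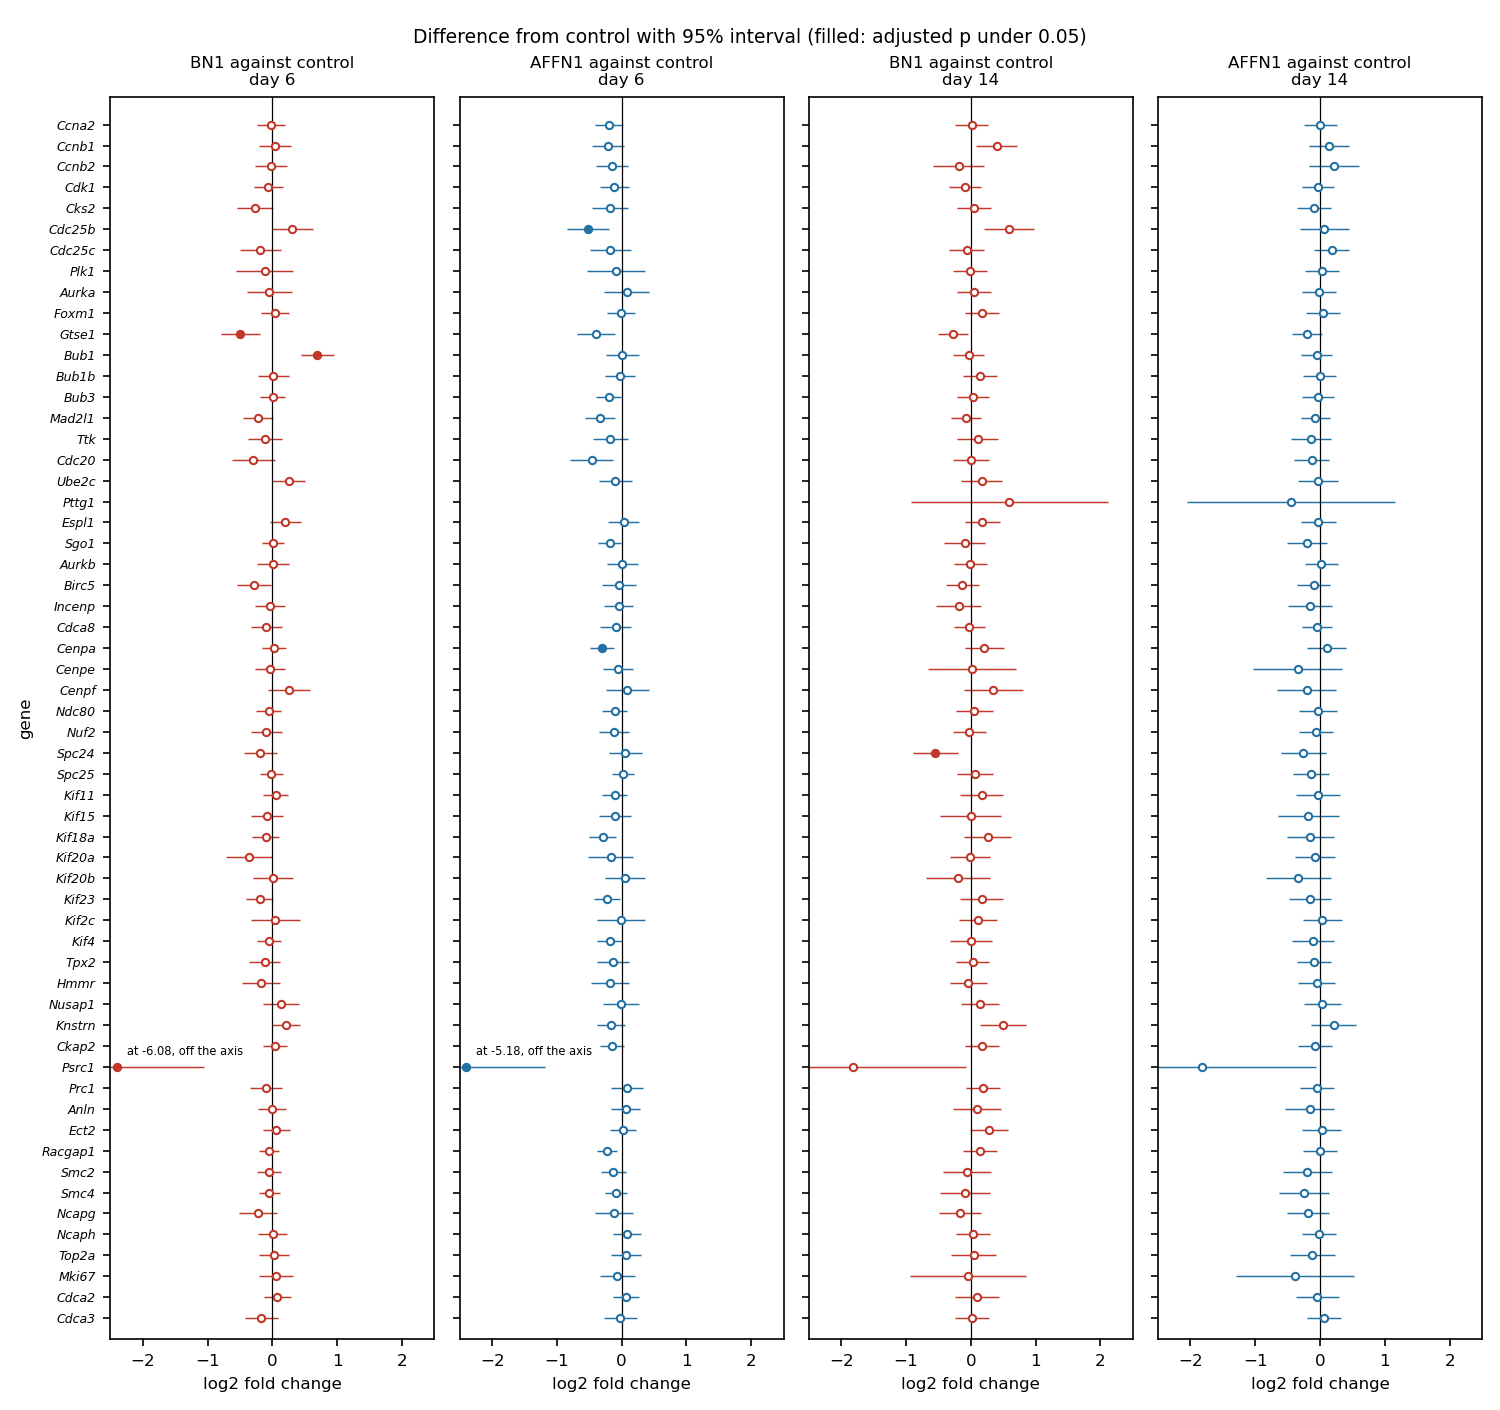
Log2 fold change of each tested gene (57 on day 6, without Pttg1, and 58 on day 14) with its 95% interval (edgeR) for BN1 against control and AFFN1 against control, on day 6 and on day 14. Filled points have an adjusted p under 0.05 over all tested genes. Most intervals cross 0, and Psrc1 lies off the day 6 axes at -6.08 in BN1 cells and -5.18 in AFFN1 cells.

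Psrc1 had the largest difference of any member in both fusions on day 6. The gene encodes a microtubule-binding spindle protein and lies on mm10 chromosome 3 from 108383839 to 108388231, on the plus strand. It had 0, 0 and 2 reads in BN1 libraries, 1, 2 and 1 reads in AFFN1 libraries and 54, 47 and 54 reads in control libraries. Both fusions were near 0 in all of their libraries and far below every control library, while the control level itself was low, with a mean of 3.31 ± 0.218 CPM (SD, n = 3). From the summed reads, scaled for library size, the control level was 80.0 times that of BN1 cells (95% counting interval 21.8 to 666) and 39.5 times that of AFFN1 cells (15.1 to 147). These intervals cover counting error only. The edgeR adjusted p was 0.000106 for BN1 against control and 0.000285 for AFFN1 against control, and both calls held with each single library left out. Between BN1 and AFFN1 cells the gene was not called (edgeR adjusted p = 0.64).

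On day 14 Psrc1 reads were present in most libraries of both fusions. BN1 libraries had 14, 31 and 16 reads, AFFN1 libraries 0, 58 and 18 reads and control libraries 41, 71 and 83 reads. Each fusion library was below the control library of its own number, and AFFN1 2 lay within the control range. From summed reads the control level was 3.29 times that of BN1 cells (95% counting interval 2.46 to 4.47) and 2.56 times that of AFFN1 cells (1.96 to 3.39). Neither fusion passed the test over libraries on day 14: the log2 fold change was -1.82 in BN1 cells (SE 0.76, 95% interval -3.56 to -0.08, edgeR adjusted p = 0.15) and -1.82 in AFFN1 cells (edgeR adjusted p = 0.394). The change of the BN1 effect between days had a log2 value of 4.25 (SE 1.24, edgeR adjusted p = 0.0581) and was not called.

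Among 11 tested genes within 250 kb of Psrc1, Celsr2 was the only one called on day 6. It encodes an adhesion receptor of the cadherin family and its gene body, at 108390851 to 108415552, lies 2.62 kb past that of Psrc1. This gap is between the nearest ends of the 2 genes, whatever their strands. Celsr2 rose in BN1 cells (log2 fold change 1.21, SE 0.31, edgeR adjusted p = 0.0245) and in AFFN1 cells (1.78, SE 0.31, edgeR adjusted p = 0.00427), whereas Psrc1 fell in both. No gene of the 10 tested near Cdc25b was called between BN1 and AFFN1 cells, and none of the 6 near Cenpa between AFFN1 and control cells.

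**Figure D3:**
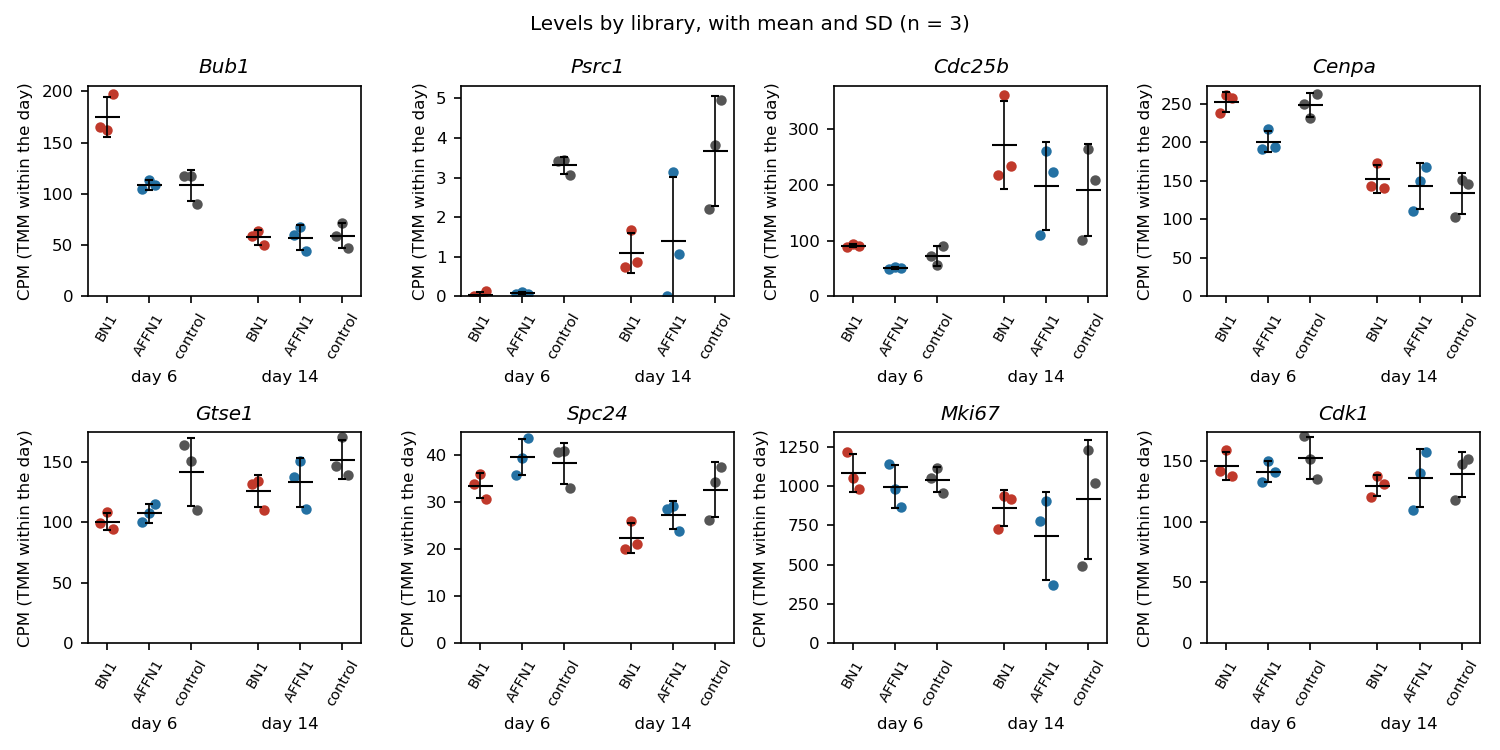
CPM of 8 mitotic genes by library, with the mean and SD of each group (n = 3), for BN1, AFFN1 and control cells on day 6 and day 14. Bub1 is high in the BN1 libraries of day 6, Psrc1 is near 0 in both fusions on day 6, and Mki67 and Cdk1 overlap between the groups of a day.

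The central mitotic genes overlapped between the groups on day 6. Mki67, whose protein coats mitotic chromosomes and is used as the standard marker of dividing cells, had 1219, 1055 and 979 CPM in BN1 libraries, 1139.9, 984 and 866 CPM in AFFN1 libraries and 1052, 1118 and 958 CPM in control libraries. The 3 groups overlapped, with log2 fold changes of 0.06 (95% interval -0.21 to 0.32) in BN1 cells and -0.06 (-0.33 to 0.20) in AFFN1 cells. Top2a had 1229.7, 1141 and 1021 CPM in BN1 libraries, 1189.8, 1277 and 1040.1 CPM in AFFN1 libraries and 1192, 1112 and 1041 CPM in control libraries. Its ranges also overlapped, at log2 fold changes of 0.02 in BN1 cells and 0.07 in AFFN1 cells.

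For Cdk1 the levels were 142, 159 and 138 CPM in BN1 libraries, 133, 149.7 and 141 CPM in AFFN1 libraries and 170.4, 152 and 135 CPM in control libraries. They overlapped, and the log2 fold change of BN1 over control was -0.06 (95% interval -0.28 to 0.16). Ccnb1, its cyclin partner, had 282, 312 and 256 CPM in BN1 libraries, 227, 267 and 218 CPM in AFFN1 libraries and 305, 266 and 254 CPM in control libraries. AFFN1 libraries reached the lowest values but overlapped with control libraries. Foxm1, a transcription factor of the G2 program, had 163, 157 and 183 CPM in BN1 libraries, 159, 171 and 159 CPM in AFFN1 libraries and 185, 154 and 151 CPM in control libraries. These overlapped too, at a log2 fold change of 0.04 in BN1 cells and of -0.00 in AFFN1 cells.

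Plk1, the polo kinase that drives spindle assembly, had 133, 161 and 104 CPM in BN1 libraries, 122, 149 and 134 CPM in AFFN1 libraries and 173, 155 and 103 CPM in control libraries. Control libraries covered the whole range of both fusions. Aurkb, the kinase of the passenger complex, had 140.5, 156 and 141 CPM in BN1 libraries, 145, 158 and 136 CPM in AFFN1 libraries and 166, 145 and 124 CPM in control libraries. Again the control libraries spanned the others, with log2 fold changes of 0.01 in both fusions.

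In the checkpoint, Bub1b, a relative of Bub1 that binds and restrains Cdc20, had 297, 303 and 262 CPM in BN1 libraries, 275, 301 and 262 CPM in AFFN1 libraries and 308, 300.03 and 245 CPM in control libraries. Its groups overlapped, with a log2 fold change of 0.01 in BN1 cells, where that of Bub1 was 0.69. Cdc20, the activator of the anaphase-promoting complex, had 128, 166 and 125 CPM in BN1 libraries, 111, 123 and 137 CPM in AFFN1 libraries and 189, 186 and 138 CPM in control libraries. The AFFN1 libraries lay below the control libraries, by the smallest of margins at the nearest pair, and the BN1 libraries overlapped with them. The log2 fold change of Cdc20 was -0.29 in BN1 cells (edgeR adjusted p = 0.196) and -0.47 in AFFN1 cells (95% interval -0.79 to -0.14, edgeR adjusted p = 0.0687). Without control 3 it was called in both fusions, at edgeR adjusted p-values of 0.0378 in BN1 cells and 0.0130 in AFFN1 cells, and DESeq2 called it in AFFN1 cells at an adjusted p of 0.0261.

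Of the roles, the passenger complex (Aurkb, Birc5, Incenp, Cdca8), the kinesins (Kif11, Kif15, Kif18a, Kif20a, Kif20b, Kif23, Kif2c, Kif4), the cytokinesis genes (Anln, Ect2, Racgap1) and the chromosome structure genes (Smc2, Smc4, Ncapg, Ncaph, Top2a, Mki67, Cdca2) had no member called in either fusion on either day. Their lowest log2 fold change in the 4 comparisons was -0.39, of Mki67 in AFFN1 cells on day 14, and their highest 0.28, of the cytokinesis factor Ect2 in BN1 cells on day 14. The kinesin Kif20a, a motor of the central spindle, was the lowest of these on day 6, at -0.36 in BN1 cells (edgeR adjusted p = 0.144). Among kinetochore genes the scaffold subunits Ndc80, Nuf2 and Spc25 lay between -0.12 and 0.02 in both fusions on day 6, and the motor Cenpe and its neighbour at the kinetochore Cenpf between -0.06 and 0.26. Of the remaining entry genes, Cks2, which binds Cdk1, was at -0.28 in BN1 cells and -0.17 in AFFN1 cells, Cdc25c at -0.18 and -0.17, and Aurka at -0.05 and 0.08, while the cyclins Ccna2 and Ccnb2 lay between -0.20 and -0.02. Cdca3 was at -0.17 in BN1 cells and -0.02 in AFFN1 cells. The checkpoint gene Mad2l1 was at -0.22 in BN1 cells and -0.33 in AFFN1 cells (edgeR adjusted p = 0.0617 in AFFN1 cells), and Bub3, Ttk, Espl1, Sgo1 and Ube2c lay between -0.20 and 0.25. The spindle genes Tpx2, Hmmr, Nusap1, Ckap2 and Prc1 lay between -0.18 and 0.12. None of these was called.

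Pttg1, securin, was below the low-count filter on day 6 and so was not tested there. It had 5, 0 and 0 reads in BN1 libraries, 15, 15 and 7 reads in AFFN1 libraries and 1, 3 and 1 reads in control libraries. The 3 AFFN1 libraries were the highest of the day, at no more than 1.00 CPM. Scaled for library size, the summed AFFN1 level was 7.26 times that of control cells (95% counting interval 2.85 to 23.7), which covers counting error only.

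On day 14, where libraries of equal number were compared as pairs, most of the mitotic genes again differed by less than 2-fold between the groups. In BN1 cells none of 58 members rose and 1 fell (Spc24), with 4.95% of 11657 tested genes rising and 6.61% falling. In AFFN1 cells edgeR called no member, with 0.317% of all tested genes rising and 0.24% falling. Between BN1 and AFFN1 cells it called none either, with 0.0686% of all genes higher and 0.112% lower. At an unadjusted p under 0.05 edgeR had 6 members (10.3%, against 30.2% of all genes) in BN1 against control, 1 (1.72%, against 12.2%) in AFFN1 against control and 4 (6.90%, against 16.6%) in BN1 against AFFN1. DESeq2 called 5, 0 and 0 members in these 3 comparisons, and its shares over all genes are not given here. The median log2 fold change of the members was 0.03 in BN1 cells, with 34 above 0 and 24 below, and -0.06 in AFFN1 cells, with 14 above 0 and 44 below. The medians over all genes were -0.00 and -0.02. The 95% interval lay within 2-fold for 56 of 58 members in BN1 cells (96.6%) and for 54 of 58 in AFFN1 cells (93.1%), against 72.9% and 78.5% of all tested genes, and the median half-width of the members' intervals in BN1 cells was 0.30 on the log2 scale.

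Spc24, a subunit of the kinetochore's Ndc80 complex on mm10 chromosome 9 from 21755442 to 21760303, had 20.03, 25.96 and 20.999 CPM in BN1 libraries, 28.5, 29.2 and 23.7 CPM in AFFN1 libraries and 26.2, 34.2 and 37.3 CPM in control libraries on day 14. BN1 was the lowest of the 3 in every numbered pair, and its highest library was just under the lowest control library. The log2 fold change of BN1 over control was -0.55 (SE 0.15, 95% interval -0.89 to -0.20, edgeR adjusted p = 0.0476). This call was lost with any of the 6 libraries left out (edgeR adjusted p 0.0779 to 0.21) and without the pairing (edgeR adjusted p = 0.14). On day 6 Spc24 had 33.7, 36.0 and 30.6 CPM in BN1 libraries, 35.7, 39.4 and 43.5 CPM in AFFN1 libraries and 40.5, 40.9 and 33.0 CPM in control libraries. Those groups overlapped, at a log2 fold change of -0.19 in BN1 cells (edgeR adjusted p = 0.285).

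Several members were higher in BN1 than in control cells in all 3 numbered pairs of day 14 without passing the adjustment. These were Cdc25b, Knstrn, Ccnb1, Foxm1, Bub1b and Pttg1. In the other direction, Gtse1, Spc24, Psrc1 and Cdc25c were lower in all 3 pairs. The share of all tested genes that did either was not counted, so neither set is read as a trait of the mitotic genes. Cdc25b had 217, 362 and 234 CPM in BN1 libraries, 109.9, 261 and 224 CPM in AFFN1 libraries and 101, 264 and 209 CPM in control libraries. Within each pair BN1 was the highest, although the groups overlapped across pairs, and its log2 fold change was 0.59 over control (SE 0.17, 95% interval 0.20 to 0.98, edgeR adjusted p = 0.0546). Knstrn had 122, 126 and 95.1 CPM in BN1 libraries, 76.5, 125 and 86.7 CPM in AFFN1 libraries and 60.4, 107 and 81.9 CPM in control libraries. BN1 was again the highest within each pair (log2 fold change 0.50, edgeR adjusted p = 0.0664). Ccnb1, with 203, 207 and 172 CPM in BN1 libraries, 137, 197 and 158 CPM in AFFN1 libraries and 128, 203 and 123 CPM in control libraries, had a log2 fold change of 0.40 in BN1 cells (95% interval 0.09 to 0.71, edgeR adjusted p = 0.0879). The control library of number 2 was close to BN1, the other control libraries well below, and DESeq2 called Ccnb1 at an adjusted p of 0.0458.

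The genes that had stood apart on day 6 did not pass the test on day 14. Bub1 had 58.8, 64.1 and 49.7 CPM in BN1 libraries, 60.1, 68.1 and 43.8 CPM in AFFN1 libraries and 59.1, 71.6 and 47.4 CPM in control libraries. Libraries of equal number lay close together, the groups overlapped, and the log2 fold change of BN1 over control was -0.03 (95% interval -0.27 to 0.20, edgeR adjusted p = 0.865). Cenpa had 143, 173 and 141 CPM in BN1 libraries, 111, 150.2 and 169 CPM in AFFN1 libraries and 103, 151 and 146 CPM in control libraries, again overlapping. Its log2 fold change was 0.21 in BN1 cells (edgeR adjusted p = 0.319) and 0.10 in AFFN1 cells (edgeR adjusted p = 0.808). Gtse1 had 132, 135 and 111 CPM in BN1 libraries, 138, 151 and 111 CPM in AFFN1 libraries and 147, 171 and 139 CPM in control libraries. Its BN1 libraries were below all control libraries, at a log2 fold change of -0.28 (edgeR adjusted p = 0.11).

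Mki67 and the other central genes spread widely within each group on day 14. Mki67 had 727, 937 and 915 CPM in BN1 libraries, 778, 907 and 369 CPM in AFFN1 libraries and 493, 1232 and 1021 CPM in control libraries. The lowest library was AFFN1 3 and the next lowest control 1, and both groups overlapped with BN1. The log2 fold change was -0.04 in BN1 cells (95% interval -0.93 to 0.85) and -0.39 in AFFN1 cells (-1.30 to 0.52). Differences inside these bounds were not detectable at this spread. Top2a had 769.8, 745 and 769 CPM in BN1 libraries, 742, 787 and 534 CPM in AFFN1 libraries and 617, 877 and 738 CPM in control libraries. AFFN1 3 and control 1 were again the lowest, and the log2 fold change of BN1 over control was 0.04.

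Cdk1 had 120.3, 138 and 131 CPM in BN1 libraries, 109.9, 140.4 and 158 CPM in AFFN1 libraries and 118, 148 and 152 CPM in control libraries, with library 1 the lowest of each group (log2 fold change -0.09 in BN1 cells). Plk1 had 199, 232 and 169 CPM in BN1 libraries, 169.7, 249 and 201 CPM in AFFN1 libraries and 176, 240.3 and 188 CPM in control libraries. Library 2 was the highest in all 3 groups, and the log2 fold change in BN1 cells was -0.01. Aurkb, with 153, 169.8 and 139 CPM in BN1 libraries, 146, 178 and 148 CPM in AFFN1 libraries and 129, 178 and 158 CPM in control libraries, showed the same high library 2 (log2 fold change -0.01 in BN1 cells).

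Bub1b had 224.5, 258 and 193 CPM in BN1 libraries, 196, 249.96 and 169 CPM in AFFN1 libraries and 173, 254 and 189.9 CPM in control libraries on day 14. Library 2 was again highest in each group, with a log2 fold change of 0.14 in BN1 cells. Cdc20 had 155, 193 and 139 CPM in BN1 libraries, 127, 178 and 141 CPM in AFFN1 libraries and 132, 181 and 174 CPM in control libraries. Foxm1 had 212, 252 and 176 CPM in BN1 libraries, 196, 244 and 152 CPM in AFFN1 libraries and 161, 233 and 176 CPM in control libraries. Both genes peaked in library 2 of every group, and the log2 fold change in BN1 cells was -0.00 for Cdc20 and 0.17 for Foxm1. Leaving aside Psrc1, Pttg1, Spc24, Cdc25b, Knstrn and Ccnb1, the day 14 log2 fold changes ran from -0.28 (Gtse1) to 0.35 (Cenpf) in BN1 cells. In AFFN1 cells they ran from -0.39 (Mki67) to 0.22 (Ccnb2).

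This shared movement ran through the list. On day 14, 58 of 58 members in AFFN1 2, 57 in control 2 and 47 in BN1 2 lay above their group's mean, with median deviations of 0.27, 0.27 and 0.11 on the log2 scale. In control 1 only 3 members did, with a median deviation of -0.22, and in AFFN1 3 there were 10, with -0.25. The median deviation over all genes was between -0.012 and 0.0042 in these 5 libraries. Summed over the 58 genes, the BN1 libraries had 8790, 9615 and 8348 CPM, the AFFN1 libraries 7964, 9716 and 6981 CPM and the control libraries 6977, 10496 and 8677 CPM. The group sums averaged 8917 ± 643 CPM in BN1 cells, 8220 ± 1385 CPM in AFFN1 cells and 8717 ± 1760 CPM in control cells (SD, n = 3), so the spread between libraries was wider than the distance between the groups.

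The pairs of day 14 accordingly pointed different ways. In pair 1, 52 of 58 members were higher in BN1 than in control, with a median log2 ratio of 0.28. Pair 2 had 14 higher and 44 lower (median -0.11) and pair 3 27 higher and 31 lower (median -0.03). For AFFN1 over control the medians were 0.12 in pair 1, -0.05 in pair 2 and -0.17 in pair 3. A setting chosen after the data were seen left out control 1 and AFFN1 3, the libraries of lowest summed level on day 14. There, 21 members were above 0 and 37 below in BN1 cells, and 4 above and 54 below in AFFN1 cells. These libraries were chosen by the level of the same members, and the members moved together, so the counts cannot show a fusion effect.

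**Figure D4:**
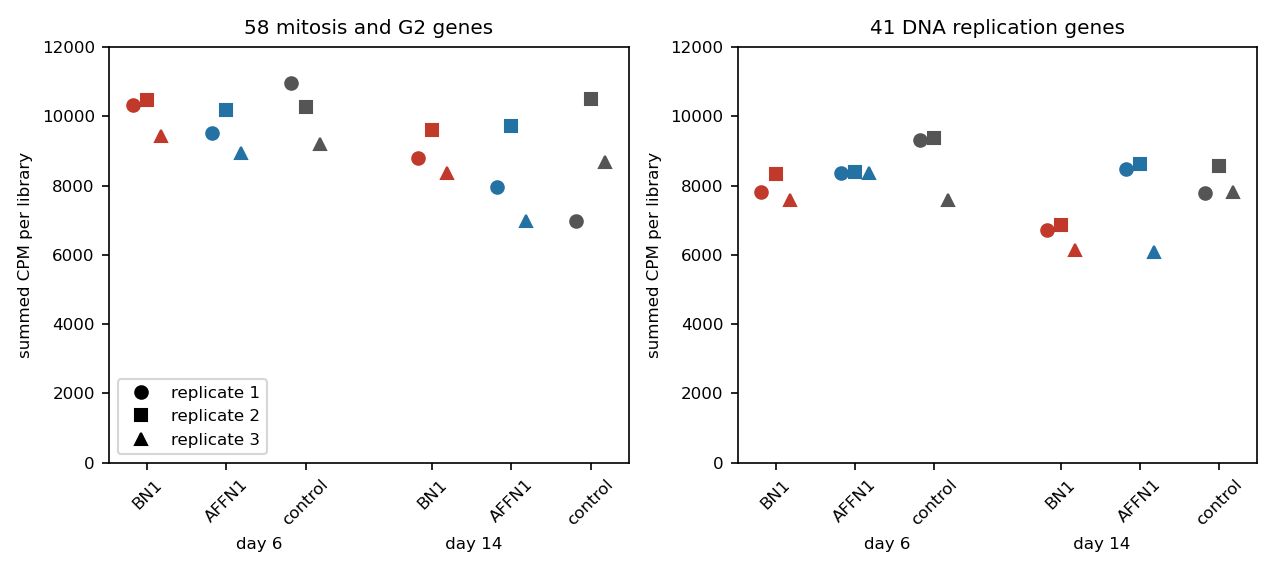
Summed CPM of the 58 mitotic and G2 genes and of 41 DNA replication genes in each library, for BN1, AFFN1 and control cells on each day. The mitotic sums of the groups overlap on both days. The DNA replication sums of the BN1 libraries on day 14 average 6578 CPM and those of the control libraries 8052 CPM. AFFN1 3 has the lowest replication sum of day 14, 6073 CPM.

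The day 6 sums were closer together, at 10072 ± 561 CPM in BN1 cells, 9556 ± 620 CPM in AFFN1 cells and 10139 ± 883 CPM in control cells (SD, n = 3). Control 1 of day 6 had 57 of 57 tested members above the control mean, with a median deviation of 0.13, and control 3 had 4, with -0.14.

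In control cells the members themselves moved between the days in both directions. On day 14 relative to day 6, 17 of 58 members rose and 11 fell in the fit of all 18 libraries, with 25.6% of 12567 tested genes rising and 27% falling. The median log2 fold change was 0.04 over the members and -0.05 over all genes. Markers of other cells moved between the days too. In control libraries, each day on its own scale, erythroid markers summed to 6.09 to 32.6 CPM on day 14 and 2.15 to 2.34 CPM on day 6, granulocyte and monocyte markers to 13.2 to 27.7 CPM on day 14 and 59.1 to 159 CPM on day 6, T and NK cell markers to 9.38 to 21.2 CPM on day 14 and 20.3 to 48.2 CPM on day 6, and stromal markers to 60.9 to 90.6 CPM on day 14 and 32.8 to 104 CPM on day 6. These sums join genes that moved differently. Thy1, of the stromal list, had 38.7, 44.1 and 50.2 CPM in control libraries on day 14 and 2.91, 1.76 and 1.75 CPM on day 6. The other stromal genes overlapped between the days. Of the T and NK cell genes, edgeR called Nkg7 and Klrb1c lower and Trac higher on day 14. The part of other cells in the day difference was not tested. Ube2c, the enzyme that passes ubiquitin to the targets of the anaphase-promoting complex, had 240.2, 341 and 398 CPM on day 14 and 146, 109 and 117 CPM on day 6, on the scale of all 18 libraries. Every day 14 control library was above every day 6 one, a 2.58-fold rise (log2 fold change 1.37, SE 0.13, edgeR adjusted p = 9.65e-07). Cdc25b had 113, 298 and 232 CPM on day 14 and 64.7, 48.6 and 80.7 CPM on day 6, again without overlap, a 3.08-fold rise (log2 fold change 1.62, SE 0.17, edgeR adjusted p = 3.19e-06). Cdca3, which helps to trigger mitotic entry, rose 2.04-fold (log2 fold change 1.03, SE 0.12, edgeR adjusted p = 4.34e-06), with 155, 210.3 and 203 CPM on day 14 and 106, 87.2 and 84.2 CPM on day 6. Pttg1 had 28, 34 and 27 reads on day 14 and 1, 3 and 1 on day 6 and was called higher (edgeR adjusted p = 0.00185), a comparison that rests on 5 reads on day 6.

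The members that fell most were Cenpe, Cenpa, Ccnb1 and Bub1. Cenpe, a kinetochore motor, had 67.2, 132 and 99.98 CPM on day 14 and 171, 153 and 144 CPM on day 6. Its day 14 libraries were all lower, at a log2 fold change of -0.66 (SE 0.22, edgeR adjusted p = 0.0186), and the call was lost without control 1 of day 6 (0.0616) or control 1 of day 14 (0.137). Cenpa had 116, 171 and 162 CPM on day 14 and 221, 204 and 233 CPM on day 6 (log2 fold change -0.57, SE 0.11, edgeR adjusted p = 0.000448). Ccnb1 had 143, 229 and 136 CPM on day 14 and 269, 233 and 225 CPM on day 6 (-0.55, SE 0.13, edgeR adjusted p = 0.00233). Both were lower on day 14, Cenpa without overlap and Ccnb1 with overlap of control 2. Bub1 had 66.3, 80.9 and 52.6 CPM on day 14 and 103, 103 and 80.1 CPM on day 6, overlapping by less than 1 CPM (-0.54, SE 0.11, edgeR adjusted p = 0.000729).

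By role, 6 of 11 entry genes rose (Cdc25b, Plk1, Aurka, Foxm1, Ccna2, Gtse1) and 1 fell (Ccnb1). All 4 passenger genes rose, by log2 fold changes of 0.35 (Cdca8) to 0.51 (Birc5). In the checkpoint and anaphase group 4 of 10 rose (Pttg1, Ube2c, Bub3, Mad2l1) and Bub1 fell. Of the kinetochore genes 4 of 7 fell (Cenpe, Cenpa, Ndc80, Spc25) and none rose. Of the spindle proteins 2 of 7 rose (Nusap1 by 0.81 and Tpx2 by 0.32). Among the others, 1 of 8 kinesins (Kif15), 2 of 3 cytokinesis genes (Ect2, Anln) and 2 of 7 chromosome structure genes (Ncapg, Smc2) fell, by log2 values of -0.42 to -0.49. Without control 3 of day 14, 21 members were called, 13 up and 8 down, the lowest count with 1 library left out. The falls depended more on single libraries: 18 members rose and 5 fell without control 1 of day 6, and 18 rose and 5 fell without control 1 of day 14, so fewer of the falls listed by role would be called in either case.

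The direction of the day difference went with transcript length. Over the 58 members the log2 fold change of control day 14 over day 6 and the length of the longest annotated transcript had a Spearman correlation of -0.44, and over 12500 other tested genes it was -0.16. Both are across genes of the same 6 control libraries and are given as descriptions. Of the 29 members at or under the median of 3.66 kb, 13 rose and 3 fell, and of the 29 longer members 4 rose and 8 fell. Length also moved with single libraries of day 14: in AFFN1 3 the median deviation of long members minus that of short members was -0.27 on the log2 scale, and -0.15 for other genes. Fusion differences went with length too. For BN1 against control, AFFN1 against control and BN1 against AFFN1, the Spearman correlations over other genes were 0.18, 0.14 and 0.08 on day 6. On day 14 they were 0.23, 0.03 and 0.28. Over the members they were 0.25, 0.09 and 0.24 on day 6, and 0.08, -0.23 and 0.37 on day 14. The part of RNA quality or library preparation in the day difference or in the fusion differences was not tested.

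**Figure D5:**
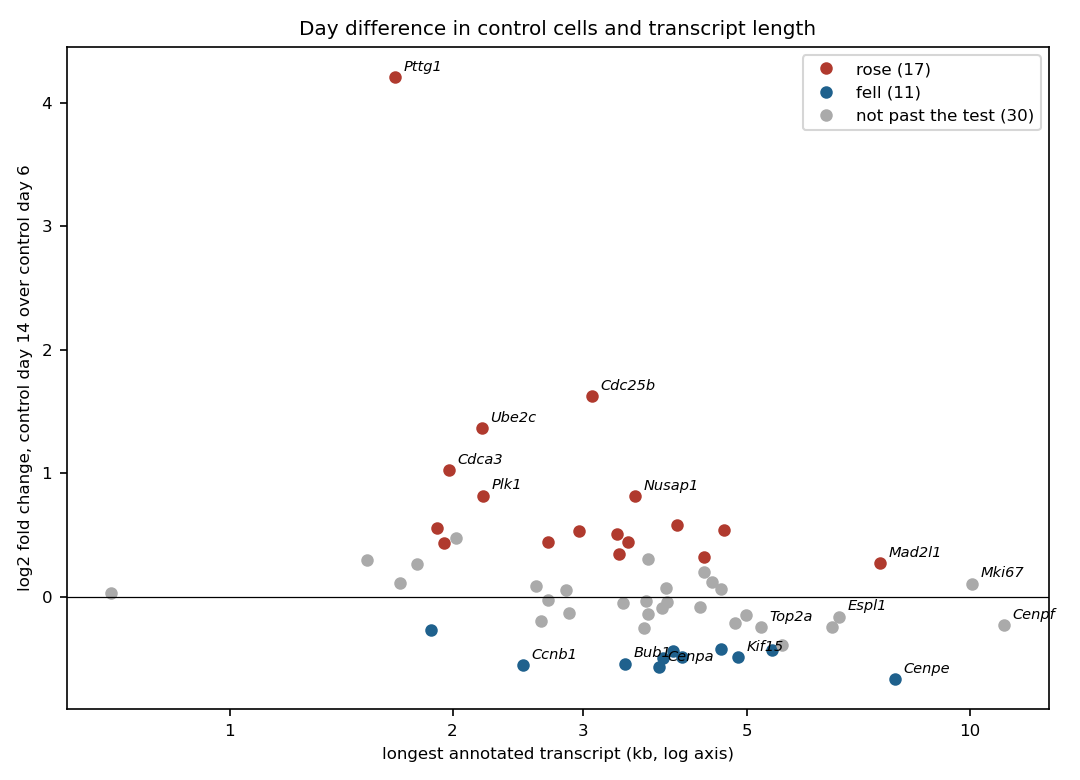
Log2 fold change of control day 14 over control day 6 against the length of the longest annotated transcript in kb (log axis) for the 58 genes, coloured by whether a gene rose (17), fell (11) or was not called (30). Short transcripts lie mostly above 0 and long ones at or below it, at a Spearman correlation of -0.44.

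Whether a fusion's effect differed between the days was tested as an interaction in the fit of all 18 libraries. For BN1, none of 58 members had a higher effect on day 14 and 1 had a lower one (Bub1), with 3.6% of all tested genes higher and 2.23% lower. The effect of BN1 on Bub1 was lower on day 14 by a log2 value of -0.72 (SE 0.15, 95% interval -1.05 to -0.39, edgeR adjusted p = 0.00947). It was called with each of the 12 single libraries left out, and lost without the pairing of day 14 (edgeR adjusted p = 0.137) and without the libraries of number 2 of day 14 (0.0513). For AFFN1 edgeR called no member, with 1.45% of all genes higher and 1.42% lower, 4 members at an unadjusted p under 0.05, and none called by DESeq2. With AFFN1 1 of day 14 left out the count was 1.

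Further genes of the division machinery were taken from lists of other mitotic genes, cohesin, the anaphase-promoting complex and the regulators of the G2 program. The shares of all tested genes that rose or fell in each comparison are those given above for the members. Of 80 other mitotic genes, 0 rose and 1 fell in BN1 cells on day 6, 0 rose and 2 fell in AFFN1 cells on day 6, 1 rose and 1 fell in BN1 cells on day 14, and none was called in AFFN1 cells on day 14. Their median log2 fold changes were -0.02, -0.10, -0.01 and -0.06. Melk, a kinase expressed in dividing progenitors, had 31.8, 33.3 and 29.5 CPM in BN1 libraries, 4.74, 4.05 and 4.99 CPM in AFFN1 libraries and 43.2, 43.1 and 37.5 CPM in control libraries on day 6. AFFN1 libraries stood far below all others, at a log2 fold change of -3.17 against control (SE 0.12, edgeR adjusted p = 8.15e-07), and BN1 libraries stood slightly below control libraries, at -0.39 (SE 0.10, edgeR adjusted p = 0.0275). On day 14 Melk had 26.0, 21.03 and 15.9 CPM in BN1 libraries, 11.7, 22.9 and 13.9 CPM in AFFN1 libraries and 16.7, 26.2 and 22.3 CPM in control libraries, with overlap of all 3 groups. The other calls were Pmf1, a kinetochore gene (-0.49 in AFFN1 cells on day 6), and, in BN1 cells on day 14, Gas2l3, a cytoskeletal linker (0.78), and Zwint, a kinetochore gene (-0.36).

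Of 12 cohesin genes, Wapl, which releases cohesin from chromatin (-0.42), and Stag1, a ring subunit (-0.25), fell in AFFN1 cells on day 6, and none was called in BN1 cells. Of 15 genes of the anaphase-promoting complex, Anapc11 (-0.43) and Cdc16 (-0.39) fell in BN1 cells on day 6, Anapc15 (-0.45) fell in AFFN1 cells on day 6 and Anapc5 (-0.42) fell in BN1 cells on day 14.

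Among 15 DREAM and MuvB regulators, 1 rose and 2 fell in BN1 cells on day 6 (6.67 and 13.3% of the list, against 8.83 and 8.53% of all genes), and 1 rose and 3 fell on day 14 (6.67 and 20%, against 4.95 and 6.61%). In AFFN1 cells 1 fell on day 6 and edgeR called none on day 14. Tfdp2, a partner of E2F factors, rose in BN1 cells on both days and had 114, 99.9 and 115 CPM in BN1 libraries, 79.8, 73.6 and 54.7 CPM in AFFN1 libraries and 53.9, 44.2 and 64.6 CPM in control libraries on day 6. All BN1 libraries were above the rest (log2 fold change over control 1.01, SE 0.16, edgeR adjusted p = 0.00202), and on day 14 the log2 fold change was 0.86 (edgeR adjusted p = 0.0227). Mybl2, which activates the genes of G2 as part of the MuvB complex, fell in BN1 cells on day 6 (-0.42, edgeR adjusted p = 0.0357) and on day 14 (-0.68, edgeR adjusted p = 0.0218). On day 14 it had 108, 115 and 99.2 CPM in BN1 libraries, 188, 152 and 107 CPM in AFFN1 libraries and 212, 154 and 157 CPM in control libraries. BN1 libraries were below all control libraries, and AFFN1 3 reached the BN1 level. The other calls were Nfyc, an NF-Y subunit, in BN1 (-0.37) and AFFN1 cells (-0.25) on day 6, and Tfdp1 (-0.47) and E2f4 (-0.45) in BN1 cells on day 14.

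DNA replication genes, which are used in S phase before the mitotic genes, had more calls in BN1 cells than the mitotic genes. Of 41 such genes none rose and 11 fell (26.8%, against 6.61% of all genes) in BN1 cells on day 14, with a median log2 fold change of -0.33 and 37 of 41 below 0, beside 0.03 for the mitotic genes and -0.00 for all genes. Without the pairing of day 14, edgeR called 3 genes of the whole table in this comparison, so most of these 11 calls rest on the pairing. On day 6 none rose and 6 fell (14.6%, against 8.53% of all genes), with a median of -0.16. In AFFN1 cells 1 fell on each day, the nucleotide enzyme Tyms, at -0.36 on day 6 and -0.75 on day 14. Tyms also fell in BN1 cells on day 6, at -0.43, and was not called there on day 14. In BN1 cells Ccne1, cyclin E, fell on both days, at -0.76 on day 6 and -0.64 on day 14. The replication factors Orc6 (-0.60) and Fen1 (-0.59) also fell on day 14. Summed over the 41 genes, day 14 levels were 6578 ± 382 CPM in BN1 cells, 7725 ± 1432 CPM in AFFN1 cells and 8052 ± 433 CPM in control cells (SD, n = 3). The BN1 libraries (6144 to 6867 CPM) lay below the control libraries, but AFFN1 3 was lower still, at 6073 CPM. The mitotic sums of the same libraries overlapped between the groups. The difference between the lists was not tested.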

How the data were processed

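The authors deposited a table of expected counts per gene. STAR, RSEM, DESeq2 and the mm10 build are named, per the submitters' processing notes. Versions, annotation and strand setting of counting were not given in the sources used here. Per the labels' protocols, poly(A) RNA was made into libraries with a stranded kit. Between 1.74 and 2.12% of values per library were not whole. The deposited expected counts were rounded, and 56 of the 58 genes had whole values in every library.

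Groups were compared with edgeR 4.0.16 (R 4.3.3): low counts were removed by filterByExpr, libraries were scaled by TMM, and the robust quasi-likelihood test was adjusted by Benjamini-Hochberg over all tested genes, called at 0.05. Day 6 (9 libraries) had no block. Day 14 (9 libraries) had the replicate number as a block, since the sample descriptions give libraries of equal number the same code. Over all tested genes, deviations from group means correlated at 0.291 to 0.614 for equal numbers and -0.503 to 0.0141 for different ones on day 14. On day 6 these ranges were -0.321 to 0.351 and -0.360 to 0.395. Over the members alone the day 14 ranges overlapped, at -0.0496 to 0.633 for equal numbers and -0.781 to 0.451 for different ones. Comparisons across days used all 18. The fit was tested on simulated data.

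Named genes are up to 6 called members per direction and comparison within a day, up to 4 across days, 10 fixed members, and up to 4 called genes of each other list. Members and lists were chosen with earlier results of these data known. Coordinates and lengths come from GENCODE M21, in which 32158 of 32285 identifiers were found. Alternatives were relative log expression scaling, DESeq2 1.42.0, no filter, the block added or removed, and left-out libraries. Counting intervals are exact at 95%. Results for 2 genes of the other lists are not reported here.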

Additional observations from a re-analysis of the deposited data

Results flagged for a closer look

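The effect of BN1 on Bub1 differed between the days by the test of the interaction itself. The change of the BN1 effect, day 14 against day 6, was -0.72 on the log2 scale (edgeR adjusted p = 0.00947). Bub1 averaged 175 ± 19.6 CPM in BN1 cells and 108 ± 15.3 CPM in control cells on day 6, and 57.6 ± 7.29 CPM in BN1 cells and 59.4 ± 12.1 CPM in control cells on day 14 (SD, n = 3 each). Since the days may be separate experiments, an effect of the day and one of the experiment cannot be told apart.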

How the results depend on the processing

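Alternatives were run for the counts of called members and for the named and fixed members, and none of these values changed sign while called. The other members called between control days and the genes of the other lists were not followed singly. Relative log expression scaling left every count of called members as it was. DESeq2 called 7 members in AFFN1 against control on day 6 (3 by edgeR), 5 in BN1 against control on day 14 (1 by edgeR) and 2 in the change of the BN1 effect (1 by edgeR). Without the filter on low counts, 3 members were called in BN1 against control on day 14. Shares over all genes are not given for DESeq2, the unfiltered fit or left-out libraries. These member counts are therefore not set against the whole table.

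The replicate block bears on these counts. With the replicate block on day 6, BN1 against AFFN1 had 2 called members in place of 4, BN1 against control 3 and AFFN1 against control 2, of which 1 was among the 3 called without the block. On day 6 the numbers are not known to pair libraries. Without the block on day 14, BN1 against control and the change of the BN1 effect each had 0 called members, and 19 in place of 28 were called between control days, 15 up and 4 down. Over all genes, the unblocked day 14 comparisons called 3 for BN1 against control, 5 for AFFN1 against control and 0 for BN1 against AFFN1. Without control 1 and AFFN1 3 of day 14, the count for BN1 against control was 0, a setting chosen after the data were seen. The cause was not tested in any of these cases.

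With libraries or numbers left out, the counts ranged from 1 to 10 in BN1 against control on day 6, 1 to 9 in AFFN1 against control on day 6, 0 to 4 in BN1 against AFFN1 on day 6, 0 to 1 in BN1 against control on day 14, 21 to 29 between control days, 0 to 2 in the change of the BN1 effect and 0 to 1 in that of the AFFN1 effect. They stayed at 0 in the other day 14 comparisons. Among the calls that held with each single library left out were Psrc1 in both fusions, Bub1 in BN1 against control and against AFFN1, Cdc25b in BN1 against AFFN1 on day 6, and the change of the BN1 effect on Bub1. Without number 1 in all day 6 groups, Bub1 was lost against control (edgeR adjusted p = 0.0543) and against AFFN1 (0.0999), as was Cdc25b against AFFN1 (0.147).

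Library totals of 14.2 to 18.4 (in 1e6 counts) leave Psrc1 and Pttg1 at few reads, so their folds rest on counting intervals. With 3 libraries per group, the spread within day 14 groups set the width of the intervals of Mki67 and Top2a.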

Other observations

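AFFN1 1 of day 14 was low in both members of least expression: it had 0 reads of Psrc1, against 58 and 18 in the other AFFN1 libraries of that day, and 1 read of Pttg1, against 36 and 37. On day 14 Pttg1 had 44, 39 and 55 reads in BN1 libraries and 28, 34 and 27 reads in control libraries.

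E2f5, a repressor-type E2F factor, was higher in BN1 than in AFFN1 cells on day 6 (log2 fold change 0.84, SE 0.18, edgeR adjusted p = 0.0128), as was Tfdp2 (0.66, SE 0.16, edgeR adjusted p = 0.0249). The replication genes Cdc6 (-0.46) and Ccne1 (-0.58) and the factor E2f2 (-0.44) were lower in BN1 than in AFFN1 cells on day 6.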
